A study of Mus musculus with 14 samples.

Results

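The granule cell genes described here are Prox1, Dsp, C1ql2, Tdo2, Lct, Trpc6, Glis3, Dock10, Stxbp6 and Calb1, 10 genes of the 55450 in the deposited expression table. They were taken by gene name, as genes enriched in the granule cells of the dentate gyrus, with earlier results of these data known, and no measured value is part of the rule. Hippocampal poly(A) RNA was sequenced from 14 female C57BL/6J mice at 10 weeks of age, with 1 library per mouse. Of these, 3 were Δ3102 mice, a global knockout of the estrogen receptor GPR30 made with CRISPR/Cas9. Another 4 were AG-KO mice, which carry a floxed GPR30 allele and GFAP-Cre and lose the receptor in astrocytes. A further 4 were NG-KO mice, with the floxed allele and NSE-Cre, which lose it in neurons. The controls were 3 WT mice, and the 14 mice included no floxed mice without Cre and no Cre-only mice. In AG-KO and NG-KO mice, effects of the floxed allele or of Cre cannot be told apart from loss of GPR30. GFAP is also made by the radial glia-like stem cells of the dentate gyrus, so GFAP-Cre can act in granule cell precursors as well as in astrocytes.

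Granule cells are the principal neurons of the dentate gyrus. They receive input from the entorhinal cortex and send mossy fibers to the hilus and CA3, and new ones are added from local stem cells in adult rodents. The 10 genes mark different sides of this cell. Prox1 and Glis3 encode transcription factors, C1ql2 a secreted synaptic protein, Trpc6 a cation channel, Calb1 a calcium buffer, Dsp a desmosome component, Dock10 and Stxbp6 regulators of the cytoskeleton and of exocytosis, and Lct and Tdo2 enzymes best known from intestine and liver. Several are not restricted to granule cells: Calb1 is also found in CA1 pyramidal cells and interneurons, and Prox1 in interneurons. In RNA from whole hippocampus, fewer granule cells and less RNA per granule cell cannot be told apart.

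The libraries held 44527024 to 62669865 counts, and all 10 genes passed the filter of at least 0.5 FPKM (fragment counts scaled to transcript length and library depth) in at least 3 libraries. Gper1, which encodes GPR30, had 2, 12 and 23 counts in Δ3102 mice. It had 77 to 195 counts in AG-KO mice and 141 to 222 in NG-KO mice, against 132 to 490 in WT mice, so the whole-tissue level checks the Δ3102 label but not the others. Hippocampal markers were present in every mouse, with CA1 genes summing to 99.1 to 108 FPKM in Δ3102, 91.4 to 137 in AG-KO and 90.3 to 131 in NG-KO mice, against 80.8 to 101 FPKM in WT mice. Transcripts of other tissues differed between libraries. Hepatocyte genes summed to 14.2 to 513 FPKM in Δ3102 mice, 2.23 to 133 in AG-KO mice and 7.60 to 162 in NG-KO mice, against 392 to 474 FPKM in WT mice. Choroid plexus genes, led by Ttr, summed to 1438 FPKM in Δ3102 replicate 1 and to 5.57 to 243 FPKM in the other 13 libraries.

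No granule cell gene passed an adjusted p of 0.05 against WT in any genotype in the edgeR fit across 18059 genes, yet nearly all of them lay on the lower side. In Δ3102 mice, 9 of the 10 genes had a negative log2 fold change, with a median of -0.22, whereas 50.7% of all tested genes were negative and their median was -0.00375. In AG-KO mice, all 10 were negative with a median of -0.40, against 51.8% of all genes and a median of -0.0136. In NG-KO mice, 9 of 10 were negative with a median of -0.63, against 52.5% of all genes and a median of -0.0159. The 3 comparisons share the same WT mice and are not independent of each other. Nor are the 10 genes separate observations, since several rose and fell together from mouse to mouse. Pearson's r over the 14 libraries was 0.965 for Dsp and Lct and 0.938 for C1ql2 and Trpc6. Single mice weighed on these medians. The Δ3102 median was -0.0172 without Δ3102 replicate 1, where Dsp, Lct and Tdo2 turned positive, -0.434 without Δ3102 replicate 3, -0.0867 without WT replicate 2 and -0.386 without WT replicate 3. The AG-KO median was -0.253 without AG-KO replicate 4 and -0.259 without WT replicate 2, and the NG-KO median was -0.22 without both NG-KO replicates 2 and 4. With the log2 level of Alb, a liver transcript, as a covariate the medians were -0.386 in Δ3102, -1.03 in AG-KO and -0.905 in NG-KO mice. Alb was lower in every AG-KO and NG-KO mouse than in any WT mouse, so the Alb fit cannot separate Alb from genotype there. With the replicate number as a block the AG-KO median was -0.195.

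**Figure D1:**
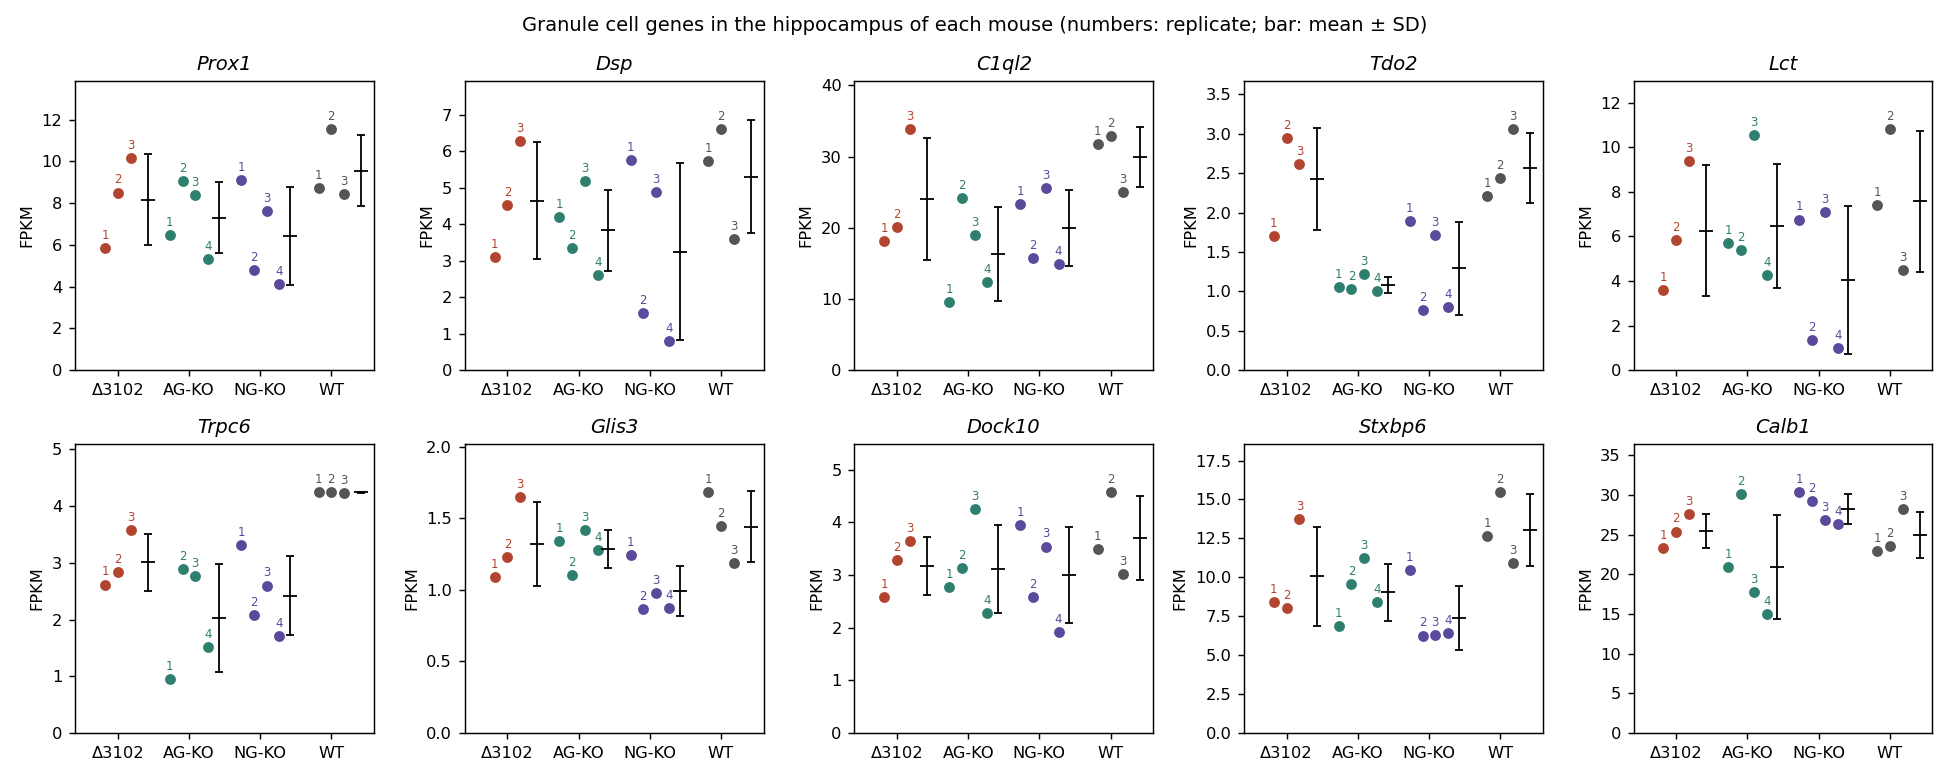
FPKM of the 10 granule cell genes (vertical axes, starting at 0) in each Δ3102, AG-KO, NG-KO and WT mouse, with the replicate number above each point and the mean ± SD beside each group. Trpc6 lay below the 3 WT mice in every knockout mouse, Tdo2 lay between 1.01 and 1.23 FPKM in AG-KO mice, and NG-KO replicates 2 and 4 lay near the bottom for Dsp and Lct.

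The counts of genes passing each threshold were small. At an adjusted p under 0.05, 0 of the 10 genes were called in each comparison, and 0.0111% of all genes were called in Δ3102, 0.0221% in AG-KO and 0.0720% in NG-KO mice against WT mice. At an unadjusted p under 0.05 there were 0 granule cell genes in Δ3102 mice, where 4.45% of all genes passed. In AG-KO mice, 3 of 10 passed (C1ql2, Tdo2 and Trpc6), against 14.4% of all genes. In NG-KO mice, 4 of 10 passed (Tdo2, Trpc6, Glis3 and Stxbp6), against 9.16% of all genes. Groups that did not overlap, with every knockout mouse below every WT mouse, were found for 1 gene in Δ3102 mice (Trpc6), against 6.13% of all genes. The same held for 3 genes in AG-KO mice (C1ql2, Tdo2 and Trpc6), against 8.30%, and for 3 genes in NG-KO mice (Tdo2, Trpc6 and Stxbp6), against 6.66%. DESeq2, run on the same counts, called 33, 401 and 165 of all tested genes in Δ3102, AG-KO and NG-KO mice against WT mice. In the same order edgeR called 2, 4 and 13. Of the granule cell genes, DESeq2 called Tdo2 in AG-KO mice (adjusted p = 0.0257) and no other, and limma on log2(FPKM + 0.1) or log2(FPKM + 1) called 0.

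**Figure D2:**
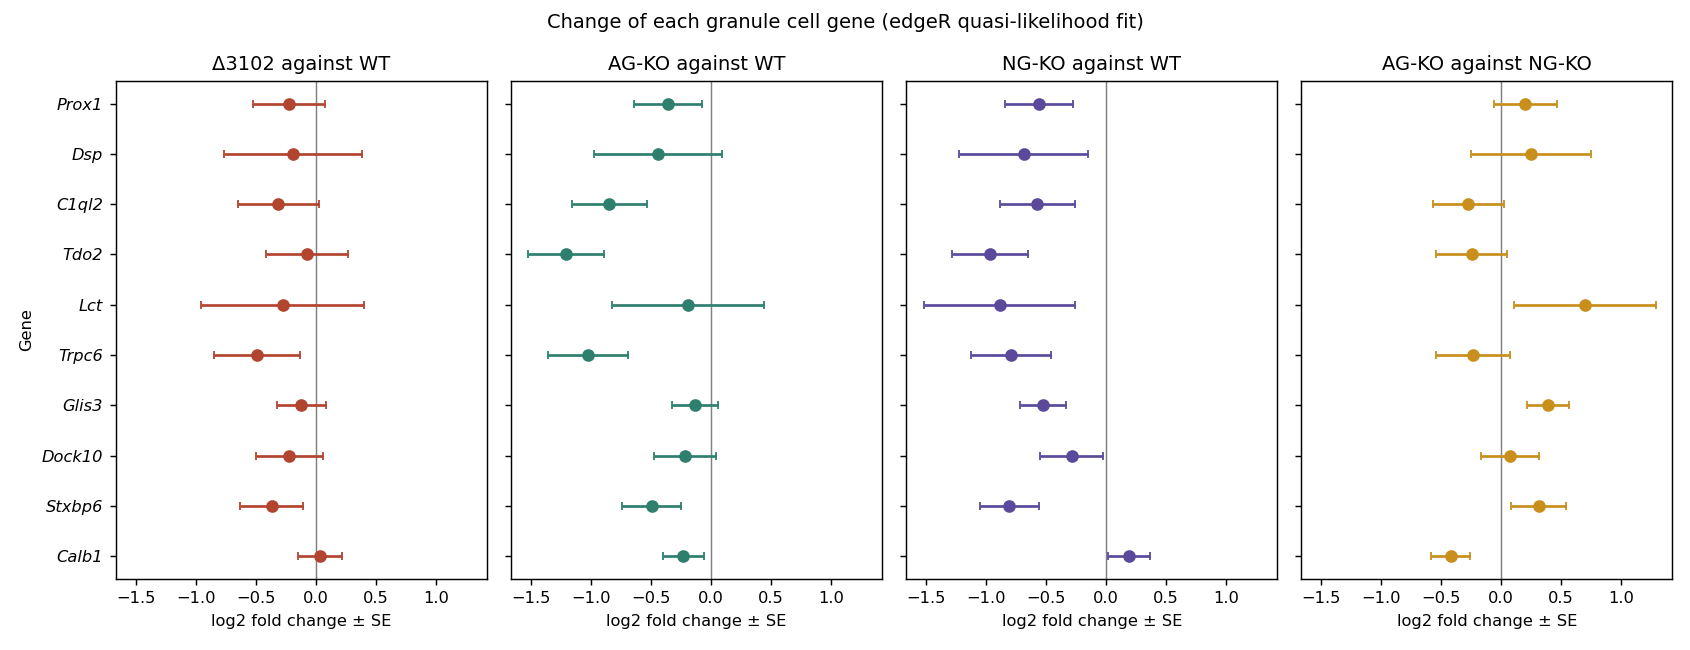
Log2 fold change ± SE (horizontal axis) of each granule cell gene in 4 comparisons, from the edgeR fit over all 14 libraries. In AG-KO against WT mice all 10 points lie left of 0, from -1.21 for Tdo2 to -0.14 for Glis3, and in AG-KO against NG-KO mice they lie on both sides.

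Prox1, the homeobox factor required to make and keep granule cell identity, lies at chr1:190118035-190170714 on the minus strand of GRCm38. Its level was 5.84, 8.51 and 10.1 FPKM in the Δ3102 mice, 6.46, 9.04, 8.39 and 5.32 in the AG-KO mice and 9.11, 4.80, 7.63 and 4.13 in NG-KO mice, against 8.71, 11.5 and 8.43 FPKM in WT mice. The values overlapped between all genotypes, and the lowest were in NG-KO replicates 4 and 2. The log2 fold change was -0.56 ± 0.28 (SE) in NG-KO mice (edgeR adjusted p = 0.579), -0.36 ± 0.28 in AG-KO mice and -0.23 ± 0.30 in Δ3102 mice. An antisense gene, Prox1os, overlaps the start of Prox1, and the sources used here do not say whether counting used strand. Prox1os stood at 2.42 to 6.48 FPKM in Δ3102, 2.15 to 5.15 in AG-KO and 2.14 to 5.83 in NG-KO mice, against 5.73 to 8.25 FPKM in WT mice. Reads of the pair cannot be told apart if counting ignored strand.

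Glis3, a Krüppel-like zinc finger transcription factor (chr19:28258851-28680077, minus strand), was the least abundant of the 10, with a mean of 1.24 FPKM over all mice. Its FPKM was 1.09, 1.23 and 1.65 in the Δ3102 mice, 1.34, 1.10, 1.41 and 1.27 in the AG-KO mice and 1.25, 0.867, 0.977 and 0.872 in NG-KO mice, against 1.68, 1.45 and 1.19 in WT mice. In NG-KO mice, 3 of the 4 values were below every other mouse, and the fourth lay inside the WT range. Its log2 fold change was -0.53 ± 0.19 in NG-KO mice (unadjusted p = 0.0165, adjusted p = 0.424), and -0.14 ± 0.19 in AG-KO mice. Of the relatives of Prox1 and Glis3, 2 of 3 (Glis2 and Prox2) were tested. None passed an adjusted p of 0.05 in edgeR or DESeq2 in any comparison, and 1 (Prox2, in AG-KO against NG-KO mice) passed an unadjusted p of 0.05. Glis2, the more abundant, ran from 0.751 to 3.30 FPKM in NG-KO mice, against 0.978 to 2.96 in WT mice.

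Dsp encodes desmoplakin, which ties desmosomes to intermediate filaments (chr13:38151294-38198577, plus strand). Lct encodes lactase, the brush border enzyme of the small intestine (chr1:128284756-128328318, minus strand), and its transcript is also known from the mouse dentate gyrus. Dsp had 3.11, 4.54 and 6.30 FPKM in the Δ3102 mice, 4.21, 3.34, 5.18 and 2.61 in the AG-KO mice and 5.77, 1.58, 4.88 and 0.790 in NG-KO mice, against 5.73, 6.61 and 3.59 FPKM in WT mice. For Lct the values were 3.58, 5.82 and 9.37 FPKM in the Δ3102 mice, 5.72, 5.39, 10.5 and 4.25 in the AG-KO mice and 6.75, 1.34, 7.09 and 0.980 in NG-KO mice, against 7.40, 10.8 and 4.50 FPKM in WT mice. Both genes were lowest in NG-KO replicates 4 and 2, while NG-KO replicates 1 and 3 lay inside the WT range. They spanned 8.36-fold (Dsp) and 11.02-fold (Lct) between the lowest and the highest mouse, the widest ranges of the 10 genes. The log2 fold change in NG-KO mice was -0.69 ± 0.54 for Dsp (adjusted p = 0.757) and -0.89 ± 0.63 for Lct (adjusted p = 0.725). Without NG-KO replicates 2 and 4, a setting added after the data were seen, these values were 0.02 for Dsp and -0.11 for Lct.

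Since Dsp and Lct followed each other most closely among the 10 genes, the 250 bases before their RefSeq start sites (build GRCm38.p6) are shown, in lower case with E-boxes (CANNTG, either strand) and CRE cores (TGACG, either strand) in capitals. E-boxes are bound by basic helix-loop-helix factors such as NEUROD1, and CRE cores by factors of the CREB family. The first is chr13:38151044-38151293 on the plus strand, and the second is chr1:128328319-128328568 on the minus strand, each written 5′ to 3′ along its gene.
Dsp: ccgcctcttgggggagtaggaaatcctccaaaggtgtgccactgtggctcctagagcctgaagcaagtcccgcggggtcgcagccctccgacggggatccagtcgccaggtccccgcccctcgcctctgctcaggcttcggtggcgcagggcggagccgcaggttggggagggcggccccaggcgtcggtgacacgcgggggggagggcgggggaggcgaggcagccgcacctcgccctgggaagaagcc
Lct: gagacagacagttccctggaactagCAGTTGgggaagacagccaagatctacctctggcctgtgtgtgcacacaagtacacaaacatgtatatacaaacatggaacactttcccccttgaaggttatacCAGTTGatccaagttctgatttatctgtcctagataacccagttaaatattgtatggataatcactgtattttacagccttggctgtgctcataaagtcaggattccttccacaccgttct
The Dsp window held 72.4% G and C and no match to either motif, and the Lct window 42.8% and 2 E-boxes of the form CAGTTG, which start 225 and 121 bases before the start site. Over the 32851 such windows of the table, 66.2% held an E-box and 17.8% a CRE core, and the median G and C content was 52.4%. Windows were found for 9 of the 10 genes (11 windows), of which 7 held an E-box and 1 a CRE core. A match is only a string of letters, and no factor binding was measured.

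C1ql2 is a secreted C1q-like protein of mossy fiber synapses, where it binds neurexin 3 and kainate receptors (chr1:120340582-120343174, plus strand). It had 18.2, 20.1 and 33.8 FPKM in the Δ3102 mice, 9.61, 24.2, 19.0 and 12.4 in the AG-KO mice and 23.3, 15.8, 25.6 and 15.0 in NG-KO mice, against 31.8, 32.9 and 25.1 FPKM in WT mice. All 4 AG-KO mice lay below the lowest WT mouse, AG-KO replicates 1 and 4 furthest, while the other genotypes overlapped WT. The mean was 16.3 ± 6.59 FPKM in AG-KO mice and 29.9 ± 4.22 in WT mice (SD, n = 4 and 3), with a log2 fold change of -0.85 ± 0.31 (unadjusted p = 0.0183, adjusted p = 0.257). Its relative C1ql3, made in the same cells, had 9.37, 20.4, 12.6 and 8.83 FPKM in AG-KO mice, against 19.0, 19.0 and 17.7 in WT mice, a log2 fold change of -0.51 ± 0.23 (unadjusted p = 0.0431, adjusted p = 0.329). AG-KO replicates 1 and 4 were again the lowest and replicate 2 lay above the WT mice. Of the 7 C1q-like, neurexin and kainate receptor genes, 6 were tested and none passed an adjusted p of 0.05 in edgeR, with medians of -0.05 in Δ3102, 0.06 in AG-KO and 0.04 in NG-KO mice against WT mice. At an unadjusted p under 0.05 there were C1ql3 in AG-KO mice, Adgrb3 in NG-KO mice and Nrxn3 in AG-KO against NG-KO mice, and DESeq2 called the last of these. The receptor genes Nrxn3 and Grik2 ran from 4.86 to 8.04 and from 2.76 to 4.001 FPKM in AG-KO mice, against 3.31 to 7.09 and 2.93 to 4.17 in WT mice.

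Trpc6 encodes a cation channel opened by diacylglycerol (chr9:8544142-8680741, plus strand), and was the only member below every WT mouse in all 11 knockout mice. The share of all tested genes with that order in all 11 was not counted. Trpc6 had 2.62, 2.83 and 3.58 FPKM in the Δ3102 mice, 0.943, 2.89, 2.77 and 1.52 in the AG-KO mice and 3.31, 2.07, 2.60 and 1.71 in NG-KO mice, against 4.25, 4.25 and 4.23 FPKM in WT mice. The WT mice spread over 0.0117 FPKM (SD, n = 3), far less than the knockout groups, whose SDs were 0.504 in Δ3102, 0.954 in AG-KO and 0.694 in NG-KO mice. Its log2 fold change was -0.49 ± 0.36 in Δ3102 mice (adjusted p = 1), -1.03 ± 0.33 in AG-KO mice (unadjusted p = 0.00874, adjusted p = 0.209) and -0.79 ± 0.33 in NG-KO mice (unadjusted p = 0.0331, adjusted p = 0.498). It stayed negative in all 24 other settings tried for each of these comparisons, and so did Prox1, C1ql2 and Stxbp6. Some of these settings left out only mice outside the comparison. The other TRPC subunits lay closer to 0. All 5 were tested, none passed an adjusted p of 0.05 in edgeR or DESeq2 in any comparison, and their medians were -0.04, 0.00 and 0.05 in Δ3102, AG-KO and NG-KO mice against WT mice. Trpc4, a subunit of another channel group and the most abundant of the 5, had 5.08 to 6.36 FPKM in NG-KO mice, against 4.48 to 5.25 in WT mice, a log2 fold change of 0.29 ± 0.13 (unadjusted p = 0.0462, adjusted p = 0.535), and no other of the 5 passed an unadjusted p of 0.05.

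C1ql2 and Trpc6 were each the member closest to the other, so their windows are shown in the same form. C1ql2 is chr1:120340332-120340581 and Trpc6 is chr9:8543892-8544141, both on the plus strand.
C1ql2: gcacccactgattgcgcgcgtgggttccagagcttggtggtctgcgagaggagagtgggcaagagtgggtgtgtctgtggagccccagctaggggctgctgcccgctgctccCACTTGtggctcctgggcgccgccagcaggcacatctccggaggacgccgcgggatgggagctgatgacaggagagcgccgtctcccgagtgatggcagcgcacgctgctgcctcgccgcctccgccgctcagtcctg
Trpc6: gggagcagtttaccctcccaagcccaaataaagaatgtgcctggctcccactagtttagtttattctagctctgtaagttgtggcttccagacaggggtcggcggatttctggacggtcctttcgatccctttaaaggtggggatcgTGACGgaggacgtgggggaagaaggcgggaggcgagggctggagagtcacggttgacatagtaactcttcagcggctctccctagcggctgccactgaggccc
The C1ql2 window held 68.8% G and C and 1 E-box, CACTTG, starting 138 bases before the start site. The Trpc6 window held 56.4% and 1 CRE core, starting 103 bases before it, the only CRE core among the windows of the 10 genes. Neither motif occurred in all 4 printed windows.

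Calb1, which encodes the calcium buffer calbindin D28K of mature granule cells (chr4:15881264-15908064, plus strand), had fold changes on both sides of 0. Its level was 23.3, 25.4 and 27.6 FPKM in the Δ3102 mice, 20.9, 30.1, 17.7 and 15.0 in the AG-KO mice and 30.4, 29.3, 26.9 and 26.4 in NG-KO mice, against 23.0, 23.6 and 28.3 FPKM in WT mice. It was the most abundant of the 10 genes per length, with a mean of 24.8 FPKM over all mice. NG-KO mice held the highest mean, 28.2 ± 1.92 FPKM (SD, n = 4), and AG-KO replicates 1, 3 and 4 the lowest values. Its log2 fold changes were 0.03 ± 0.19 in Δ3102, -0.23 ± 0.17 in AG-KO and 0.19 ± 0.17 in NG-KO mice, with adjusted p of 1, 0.564 and 0.796. The related buffers Calb2, Pvalb and S100g (3 of 3 tested) did not pass an adjusted p of 0.05 in edgeR or DESeq2, or an unadjusted one, in any comparison. Pvalb, the calcium buffer of fast-spiking interneurons and the most abundant of these, had 98.8 to 110 FPKM in Δ3102, 33.7 to 75.9 in AG-KO and 35.3 to 59.0 in NG-KO mice, against 33.1 to 94.5 in WT mice.

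Stxbp6, or amisyn, binds SNARE complexes and restrains exocytosis (chr12:44852484-45074709, minus strand). It had 8.42, 8.06 and 13.7 FPKM in the Δ3102 mice, 6.87, 9.54, 11.3 and 8.43 in the AG-KO mice and 10.5, 6.26, 6.32 and 6.44 in NG-KO mice, against 12.7, 15.5 and 10.9 FPKM in WT mice. All 4 NG-KO mice were below the WT mice, 3 of them nearly equal and replicate 1 close to the lowest WT value. In NG-KO mice its log2 fold change was -0.81 ± 0.25 (unadjusted p = 0.00596, adjusted p = 0.346), and it was -0.49 ± 0.25 in AG-KO mice (adjusted p = 0.377). With the log2 level of Alb as a covariate the NG-KO value was -1.10 with an adjusted p of 0.019. Alb was lower in every NG-KO mouse than in any WT mouse, so this fit cannot separate Alb from genotype. Among 7 exocytic SNARE genes, all tested, none passed an adjusted p of 0.05 in edgeR, while Vamp2 was among those past an unadjusted one in AG-KO and NG-KO mice, and DESeq2 called Vamp2 in both Cre genotypes. Vamp2, the vesicle SNARE that amisyn resembles, had 322 to 366 FPKM in AG-KO and 323 to 367 in NG-KO mice, against 274 to 300 in WT mice. Its log2 fold change was 0.28 ± 0.07 in AG-KO mice (adjusted p = 0.138) and 0.27 ± 0.07 in NG-KO mice (adjusted p = 0.27), of the opposite sign to Stxbp6.

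Dock10 activates the GTPases CDC42 and RAC1 (chr1:80501073-80758527, minus strand). Its values were 2.58, 3.29 and 3.64 FPKM in the Δ3102 mice, 2.78, 3.13, 4.26 and 2.28 in the AG-KO mice and 3.94, 2.59, 3.54 and 1.92 in NG-KO mice, against 3.50, 4.58 and 3.03 FPKM in WT mice. All genotypes overlapped, and the log2 fold changes of -0.22 ± 0.28, -0.22 ± 0.26 and -0.29 ± 0.26 in Δ3102, AG-KO and NG-KO mice were about the size of their errors or smaller. Its relatives Dock9 and Dock11 and the target Cdc42 (3 of 3 tested) did not pass an adjusted p of 0.05 in edgeR or DESeq2. Cdc42 had 80.1 to 99.7 FPKM in AG-KO mice, against 101 to 106 in WT mice, a log2 fold change of -0.18 ± 0.07 (unadjusted p = 0.0224, adjusted p = 0.271), and no other of the 3 passed an unadjusted p of 0.05.

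Tdo2 encodes tryptophan 2,3-dioxygenase, the first enzyme of the kynurenine pathway, made in liver and in mature granule cells (chr3:81957090-81976202, minus strand). It had 1.71, 2.95 and 2.62 FPKM in the Δ3102 mice, 1.06, 1.02, 1.23 and 1.01 in the AG-KO mice and 1.89, 0.764, 1.71 and 0.807 in NG-KO mice, against 2.21, 2.43 and 3.06 FPKM in WT mice. All 8 mice of both Cre genotypes were under the lowest WT mouse, and the AG-KO values were tightly grouped at 1.08 ± 0.0997 FPKM (SD, n = 4), against 2.57 ± 0.439 (n = 3) in WT mice. The log2 fold change was -1.21 ± 0.32 in AG-KO mice (unadjusted p = 0.00211, adjusted p = 0.163), -0.97 ± 0.32 in NG-KO mice (unadjusted p = 0.00909, adjusted p = 0.374) and -0.08 ± 0.34 in Δ3102 mice. It had the lowest unadjusted p of the 10 genes in AG-KO mice, and its adjusted p there ran from 0.0257 (DESeq2) to 0.378 over the other settings.

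Liver transcripts were low in the same genotypes as Tdo2. Alb, the main hepatocyte transcript, stood at 161, 189 and 1.11 FPKM in Δ3102 mice, at 44.8 and 1.12 FPKM in AG-KO replicates 1 and 2, with 0 counts in replicates 3 and 4, and at 2.00, 55.8, 41.7 and 49.6 in NG-KO mice, against 167, 126 and 165 FPKM in WT mice. Of 12 hepatocyte genes, all tested, 11 were lower in AG-KO mice at an unadjusted p under 0.05 and 0 at an adjusted one, with a median log2 fold change of -3.84, and DESeq2 called 1 (Apoh). Single mice were unlike in Tdo2 and Alb: Δ3102 replicate 3, with almost no Alb, had 2.62 FPKM of Tdo2, and AG-KO replicate 1, with 44.8 FPKM of Alb, had 1.06. With the log2 level of Alb as a covariate the AG-KO value of Tdo2 was -1.56 with an adjusted p of 0.378. Alb was lower in every AG-KO and NG-KO mouse than in any WT mouse, so this fit cannot separate Alb from genotype. Other enzymes of the pathway lay mostly on the lower side too: of 11 listed genes, 7 were tested, 6 of the 7 were negative in AG-KO mice with a median of -1.55, and 4 (Afmid, Haao, Qprt and Aadat) reached an unadjusted p under 0.05. None reached an adjusted one in edgeR, and DESeq2 called Haao. The tested gene that was not negative, Kyat1, had a log2 fold change of 0.24 ± 0.12 in AG-KO mice (edgeR unadjusted p = 0.069). Kyat1 was much more abundant, with 4.47 to 4.54 FPKM in NG-KO mice. Afmid, Haao, Qprt and Aadat had at most 0.432 FPKM there. Haao, the enzyme that makes the precursor of quinolinic acid, is also a liver gene and had 1.27, 1.12 and 0.246 FPKM in Δ3102 mice, 0.0152 to 0.166 in AG-KO mice and at most 0.246 in NG-KO mice, against 0.750 to 1.06 in WT mice.

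**Figure D3:**
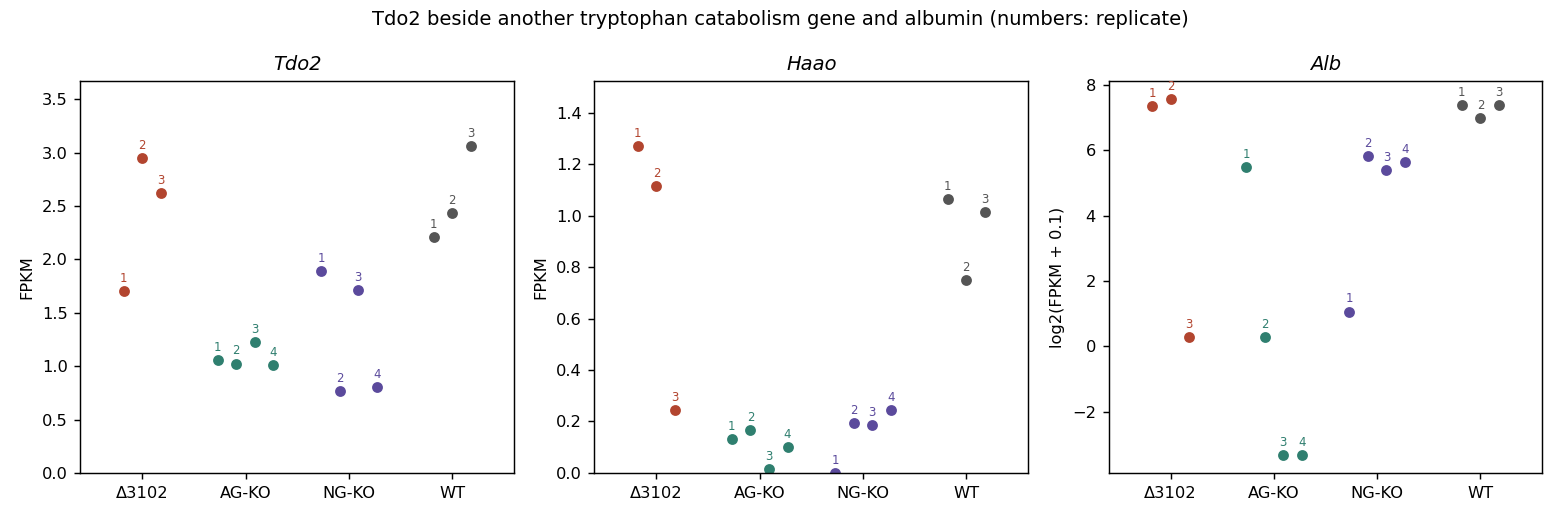
Tdo2 and Haao (FPKM) and Alb (log2(FPKM + 0.1)) in each Δ3102, AG-KO, NG-KO and WT mouse, with the replicate number above each point. Δ3102 replicate 3 was low in Alb (1.11 FPKM) and Haao (0.246 FPKM) but had 2.62 FPKM of Tdo2.

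The 10 genes also differed between mice of the same genotype. NG-KO replicates 2 and 4 were each among the lowest 4 of the 14 mice in 9 of the 10 genes, all but Calb1, and AG-KO replicate 4 in 8. Together, NG-KO replicates 2 and 4 held the lowest value in 7 genes, and AG-KO replicates 1 and 4 in the other 3. At the other end, WT replicate 2 was among the highest 4 in 9 genes and so was Δ3102 replicate 3. These ranks were taken for the 10 genes only, with no share over all tested genes. Both NG-KO replicates 2 and 4 were below both NG-KO replicates 1 and 3 in 8 of the 10 genes, all but Stxbp6 and Calb1, and 17.9% of all tested genes had that order. The mean of replicates 2 and 4 was 0.168 times that of replicates 1 and 3 for Lct, 0.222 for Dsp, 0.436 for Tdo2, 0.533 for Prox1, 0.783 for Glis3 and 0.972 for Calb1. This grouping was noticed in the data and has no label behind it, so no test was made.

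**Figure D4:**
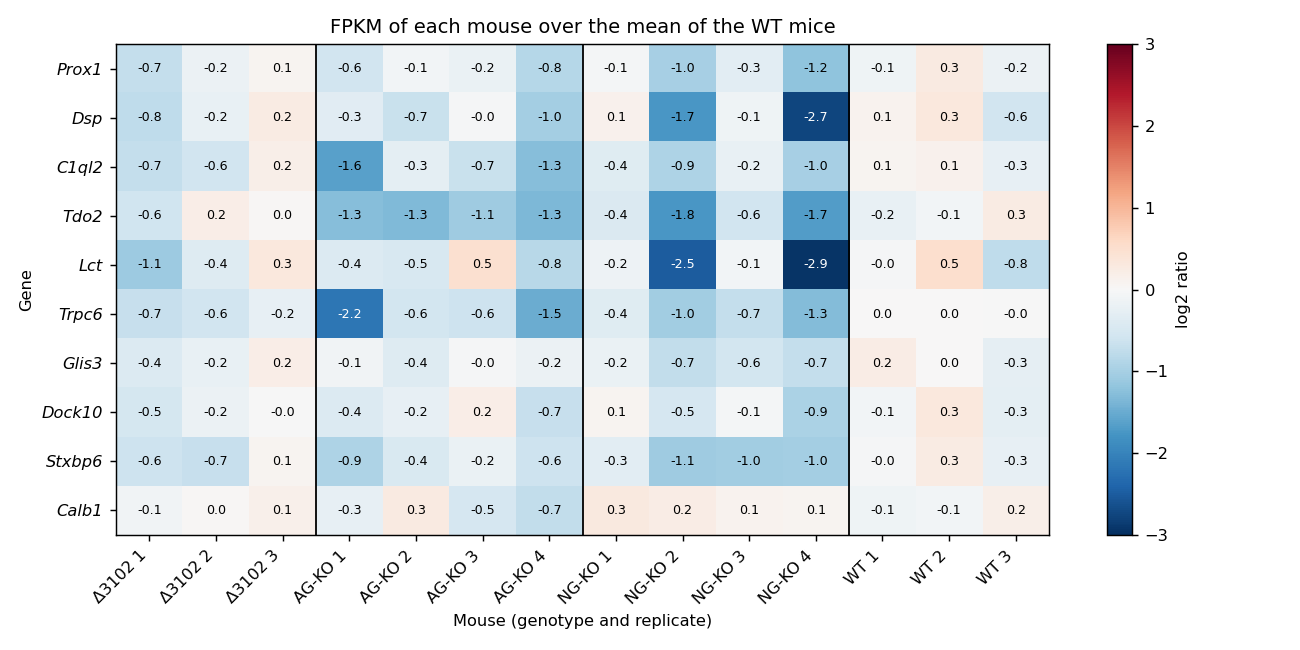
Log2 ratio of each mouse's FPKM to the mean of the 3 WT mice for the 10 granule cell genes (rows), with mice in columns by genotype and replicate. NG-KO replicates 2 and 4 and AG-KO replicate 4 are blue in most rows, and the Calb1 row stays near 0 in all NG-KO mice.

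Other cell types differed between the same NG-KO mice. All 6 oligodendrocyte genes were lower in replicates 2 and 4 than in 1 and 3, and their sum was 219 and 213 FPKM, against 322 and 317. In NG-KO mice as a whole these 6 had a median log2 fold change of -0.90, and all 6 passed an unadjusted p of 0.05, none an adjusted one in edgeR, and DESeq2 calls included Mog and Mobp. Of 8 CA2 and CA3 genes, 6 had that order, with Iyd, a CA3 gene named here after its values were seen, at 0.870 and 0.676 FPKM against 3.63 and 2.48. The opposite order, with both replicates 2 and 4 above both 1 and 3, held for 22.3% of all tested genes. It held for 5 of 8 interneuron genes, with sums of 501 and 494 FPKM, against 412 and 388. It held for 4 of 7 meningeal fibroblast genes, which summed to 39.8 and 42.1 FPKM, against 22.5 and 25.6, and for 10 of 12 hepatocyte genes, which summed to 162 and 139 FPKM, against 7.60 and 126. The part of these differences in the granule cell values was not tested.

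**Figure D5:**
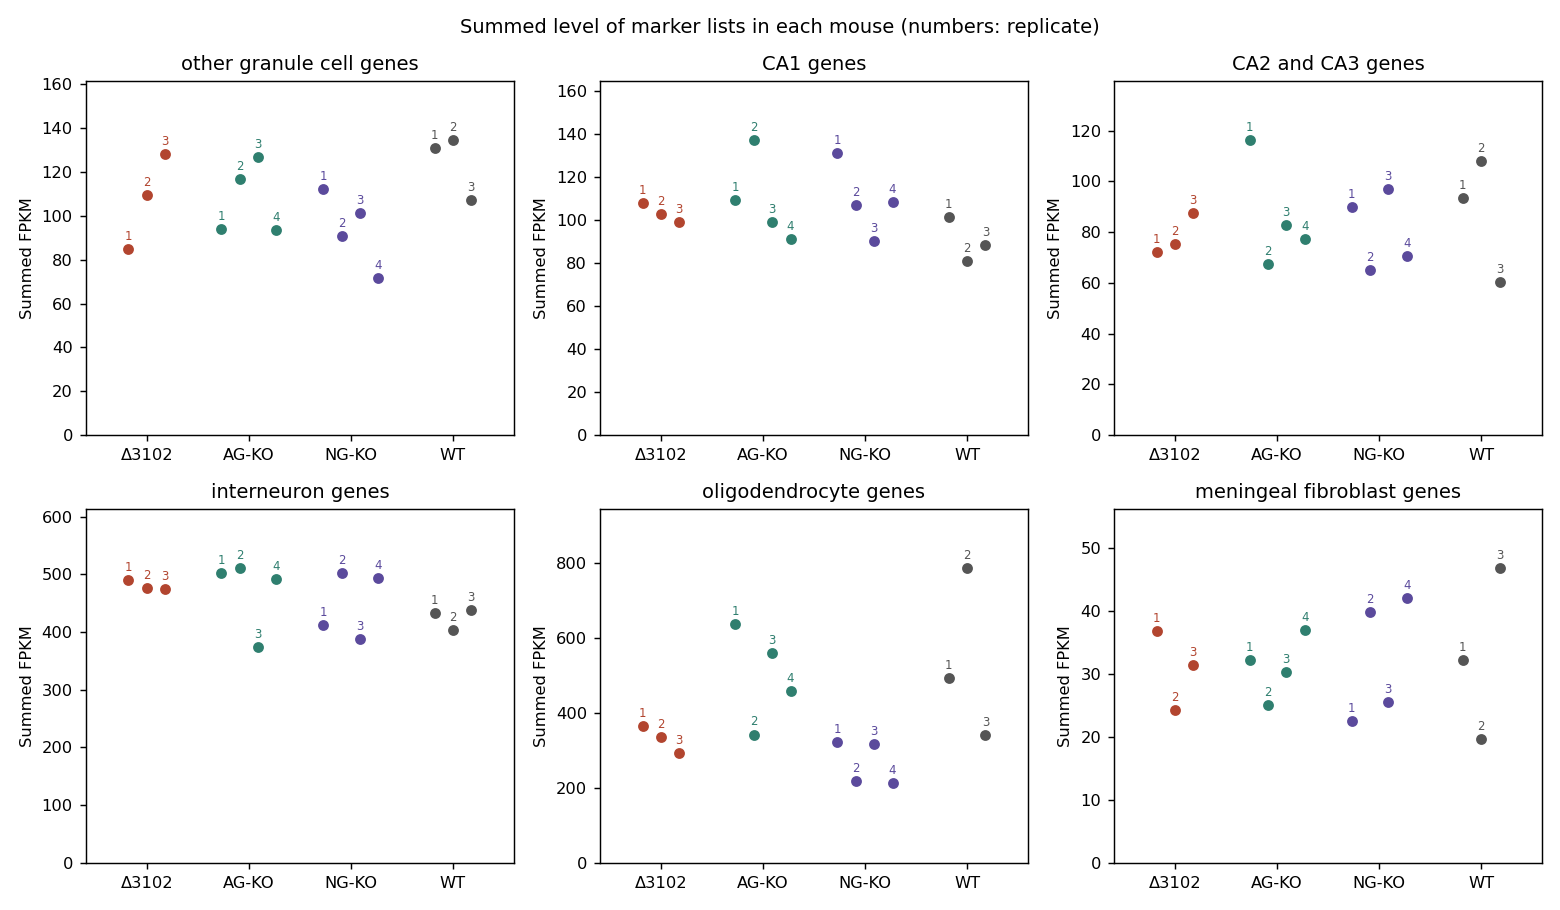
Summed FPKM of marker lists in each Δ3102, AG-KO, NG-KO and WT mouse, with the replicate number above each point. NG-KO replicates 2 and 4 had 219 and 213 FPKM of oligodendrocyte genes, against 322 and 317 in NG-KO replicates 1 and 3, and were lower in other granule cell genes as well.

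AG-KO and NG-KO mice were also compared directly, with AG-KO over NG-KO. None of the 10 genes passed an adjusted p of 0.05, where 0.111% of all genes did, and 2 (Glis3 and Calb1) passed at an unadjusted p under 0.05, against 14.1%. The groups of no gene were apart with AG-KO lower, against 3.31% of all genes, and 4 of 10 log2 fold changes were negative, against 51.4%. Glis3 averaged 1.28 FPKM in AG-KO and 0.990 in NG-KO mice, a log2 fold change of 0.39 ± 0.18 (unadjusted p = 0.0482, adjusted p = 0.347). Calb1 averaged 20.9 FPKM in AG-KO and 28.2 in NG-KO mice, a log2 fold change of -0.42 ± 0.16 (unadjusted p = 0.0206, adjusted p = 0.264). AG-KO replicate 2 was the 1 AG-KO mouse with a Calb1 level in the NG-KO range, and without it the value was -0.64 with an adjusted p of 0.0206. Leaving out the overlapping mouse widens the gap by construction. Without it, the genes called among all tested genes also went from 20 to 297. The median of the 10 genes was 0.14 with all mice and -0.35 without NG-KO replicates 2 and 4. The order of the 4 genotype means ran from WT down in 9 genes, with NG-KO lowest in 6 and AG-KO in 3, and neighbours in that order overlapped in every case but Trpc6, whose WT mice stood clear of the next group.

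Further genes of granule cells were also mostly negative. Of 10 other granule cell genes, all tested, none passed an adjusted p of 0.05 in edgeR or DESeq2 in any comparison, and those past an unadjusted one included C1ql3 in AG-KO mice and Fam163b in AG-KO against NG-KO mice. Their medians were -0.17 in Δ3102, -0.20 in AG-KO and -0.31 in NG-KO mice, with 7, 8 and 9 negative, and their sum was 85.0 to 128 FPKM, 93.5 to 127 and 71.5 to 112 in these genotypes, against 107 to 135 FPKM in WT mice. Fam163b was the most abundant. Among 8 genes of immature granule neurons, 7 were tested, and none passed an adjusted p of 0.05 in edgeR. The medians were -0.265 in Δ3102, -0.0222 in AG-KO and -0.112 in NG-KO mice against WT mice, with 6, 4 and 4 of the 7 negative. All 8 summed to 34.79 to 72.47 FPKM in NG-KO mice, against 46.65 to 59.32 FPKM in WT mice. Igfbpl1 and Eomes passed an unadjusted one in NG-KO mice and in AG-KO against NG-KO mice, and DESeq2 called Igfbpl1 in the first of these and Eomes in the second. Igfbpl1, a gene of newborn granule neurons, had 0.580, 0.649 and 0.987 FPKM in the Δ3102 mice, 2.82, 1.43, 0.442 and 0.425 in the AG-KO mice and 0.601, 0.103, 0.632 and 0.115 in NG-KO mice, against 2.10, 2.28 and 1.72 FPKM in WT mice. Its log2 fold change was -2.46 ± 0.72 in NG-KO mice (unadjusted p = 0.00467, adjusted p = 0.338), and the 4 NG-KO mice were all under the lowest WT value. The 5 mossy cell genes, cells of the hilus, had medians of -0.39, 0.20 and 0.22 in Δ3102, AG-KO and NG-KO mice, and none passed an adjusted p of 0.05 in edgeR. Drd2 in AG-KO mice and Ajap1 in NG-KO mice passed an unadjusted one against WT mice, and DESeq2 called Drd2.

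Partners of desmoplakin had fold changes on both sides of 0. Of 9 desmosome genes, 6 were tested and none passed an adjusted p of 0.05 in edgeR, with medians of -0.04, -0.06 and 0.02 in Δ3102, AG-KO and NG-KO mice against WT mice. Pkp4, the most abundant, had 42.5 to 49.7 FPKM in AG-KO mice and 39.8 to 41.9 in NG-KO mice, against 38.5 to 48.0 in WT mice. Jup, which encodes plakoglobin, a direct partner of desmoplakin, had 4.75 to 5.89 FPKM in AG-KO mice, against 3.39 to 4.19 in WT mice, a log2 fold change of 0.58 ± 0.15 (unadjusted p = 0.00158, adjusted p = 0.15), and DESeq2 called it. Perp, a desmosome-associated membrane protein gene, also passed an unadjusted p of 0.05 in AG-KO against WT mice, with a log2 fold change of -1.19 ± 0.36 (adjusted p = 0.196). Jup was above every WT mouse in 4 of 4 AG-KO mice, where Dsp had a log2 fold change of -0.44 ± 0.54.

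Likeness of pattern was measured as Pearson's r of log2 CPM (counts scaled to library size) over the 14 libraries, a description given without a p, in which libraries of the same genotype count as separate points. Dsp and Lct were closest to each other (r = 0.965), and so were Trpc6 and C1ql2 among the members (r = 0.938). The gene closest to Prox1 was Sowaha (r = 0.983), then Sema5a and Kdm7a (r = 0.91 for both). Dsp was next closest to Rbfox1 (r = 0.959) and Aldh1a1 (r = 0.929), and Lct to Sema5a (r = 0.94) and Zfp207 (r = 0.939). Acvr1c and Kctd4 followed both C1ql2 (r = 0.936 and 0.934) and Trpc6 (r = 0.945 and 0.915). Dock10 was closest to Kbtbd11 (r = 0.936), Btbd3 (r = 0.925) and Prox1 (r = 0.904). Tdo2 was closest to Arfgef1 (r = 0.914), Plrg1 (r = 0.874) and Psme4 (r = 0.872). Glis3 was closest to Lrrc20 (r = 0.91), Ythdc2 and Wnk4, Stxbp6 to Ccar1 (r = 0.886), Gm38843 and Lin7c, and Calb1 to Slirp (r = 0.917), Cct6a and Pfn4, none of them a member. The mean standardized level of the 10 genes was followed most closely by Vwa3b (r = 0.953), Sowaha (r = 0.941), Camkk1 (r = 0.934), Fpgt (r = 0.931) and Plk5 (r = 0.926). Plk5, which is on the list of other granule cell genes, had 2.41, 3.38 and 4.94 FPKM in the Δ3102 mice, 1.27, 3.80, 3.61 and 2.40 in the AG-KO mice and 3.599, 1.80, 4.05 and 1.11 in NG-KO mice, against 5.52, 5.13 and 3.6 FPKM in WT mice.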

How the data were processed

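RNA-Seq was performed on hippocampal poly(A) RNA of 14 female mice, 1 library per mouse. The authors aligned the reads to the mouse genome (GRCm38) using HISAT2 2.0.4 after adapter removal by cutadapt 1.9. Their notes give StringTie 1.3.4d as well as UMI-tools, and name edgeR and DESeq2 with no version. The deposited FPKM values come from StringTie, and a gene without counts is listed at 0.0001. The deposited counts are whole numbers and not normalized, and their counting program is not given in the sources used here. Columns of the authors' own comparisons were not used.

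Counts of all 14 libraries were fitted together with edgeR 4.0.16 in R 4.3.3 (TMM, quasi-likelihood test, 1 mean per genotype), for 18059 genes with at least 0.5 FPKM in at least 3 libraries. P-values were two-sided and adjusted after Benjamini and Hochberg across those genes, and calls were made at 0.05. Standard errors were derived from the fold change and its F statistic. The fit was tested on simulated data. Alternatives were other scaling, filters, DESeq2 1.42.0, limma 3.58.1 on log2(FPKM + 0.1) or log2(FPKM + 1), fits of only the 2 groups compared, the replicate number as a block, Alb as a covariate and leaving out each library. Leaving out NG-KO replicates 2 and 4 together was added after the data were seen. Promoter windows are from RefSeq, and other coordinates from GENCODE vM21. The 10 genes and all lists were chosen with earlier results of these data known. All 10 genes are named, with list members past a threshold, the most abundant or closest relative of each list, and the genes of most similar pattern. Genes of muscle, germ cell, thalamus, striatum, neocortex and vessel lists were measured too, and none passed an adjusted p of 0.05 in edgeR. Some members of these lists are not reported here. Figures were drawn with matplotlib 3.10.9.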

Additional observations from a re-analysis of the deposited data

Results flagged for a closer look

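For Stxbp6 in NG-KO mice, replicate 1 stood apart from the other 3: it had 10.5 FPKM, against 6.26, 6.32 and 6.44 FPKM in replicates 2, 3 and 4. The gap to the nearest mouse was a larger share of the range than Dixon's test allows for 4 samples. It was the only such gap among 20 groups tested, 10 genes in AG-KO and 10 in NG-KO mice, and chance flags about 1 group in 20.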

How the results depend on the processing

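Of the 24 other settings, those that left out a single library left the 10 genes uncalled, with 1 exception. This was Calb1 in AG-KO against NG-KO mice without AG-KO replicate 2, where 297 of all tested genes were called. Over them, the median log2 fold change of the 10 genes ran from -0.434 to -0.0172 in Δ3102, -0.593 to -0.253 in AG-KO, -0.885 to -0.46 in NG-KO mice against WT and -0.0864 to 0.332 in AG-KO against NG-KO mice, and genes called numbered 2 to 10, 1 to 82, 8 to 19 and 13 to 297, with 0 to 1 of the 10 genes in the last comparison. DESeq2 called 33, 401, 165 and 455 genes in the same order, 1 of them among the 10 (Tdo2 in AG-KO mice). A fit of only the 2 groups compared called 0 in Δ3102, 7 in AG-KO and 13 in AG-KO against NG-KO mice, and limma on log2(FPKM + 1) called 14 in AG-KO mice. With the replicate block 1, 1, 5 and 9 genes were called and 0 of the 10, with medians of -0.241, -0.195, -0.59 and 0.143. Deviations from the genotype mean had r of -0.287 to 0.313 over 19 same-numbered pairs of mice. Differently numbered pairs were not set beside them, so whether the numbers pair mice was not tested. Against WT mice the Alb fit cannot separate Alb from genotype in AG-KO or NG-KO mice, since Alb was lower in every one of them than in any WT mouse. Between AG-KO and NG-KO mice the Alb levels overlapped. With Alb as a covariate 1 gene was called in AG-KO and 13 in AG-KO against NG-KO mice, the AG-KO median was -1.03, 1 of the 10 genes (Stxbp6) was called in NG-KO mice, and AG-KO against NG-KO values turned to -0.0474 (Prox1), -0.0301 (Dsp), -0.171 (Dock10) and -0.117 (Stxbp6). Without NG-KO replicates 2 and 4 the medians were -0.22 in NG-KO against WT and -0.353 in AG-KO against NG-KO mice, 7 and 10 genes were called in Δ3102 and AG-KO mice, Dsp (0.023) and Dock10 (0.0367) turned in NG-KO mice, and Prox1 (-0.19), Dsp (-0.464), Lct (-0.0822) and Dock10 (-0.255) turned in AG-KO against NG-KO mice.

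Leaving out single libraries turned further signs, none of them at an adjusted p under 0.85, over these lowest and highest log2 fold changes. In Δ3102 mice Glis3 ran from -0.306 to 0.0107 and Calb1 from -0.0248 to 0.12 (turned without WT replicate 1, at -0.0178, WT replicate 2, at -0.00267, or Δ3102 replicate 3). Lct ran from -0.68 to 0.0723 (turned without WT replicate 2 or, at 0.00351, Δ3102 replicate 1), Tdo2 from -0.249 to 0.126 (turned without Δ3102 replicate 1 or, at 0.0564, WT replicate 3) and Dsp from -0.465 to 0.0294 (turned without Δ3102 replicate 1). Without WT replicate 1 Glis3 turned in Δ3102 and in AG-KO mice, where it ran from -0.267 to 0.00175. Lct turned in AG-KO mice without WT replicate 2 (-0.552 to 0.156). In AG-KO against NG-KO mice Trpc6 turned without AG-KO replicate 1 (-0.438 to 0.00964), Tdo2 without NG-KO replicate 1 (-0.43 to 0.00312), Dsp without NG-KO replicate 4 (-0.0773 to 0.687) and Dock10 without AG-KO replicate 3 or, at -0.0956, NG-KO replicate 4 (-0.135 to 0.239). The causes were not tested. Precision was limited by 3 or 4 mice per genotype.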

Other observations

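Tested gene lists of other cell types held values that the description of the granule cell genes did not use. Gad1 and Gad2, which encode the enzymes that make GABA in interneurons, had log2 fold changes in AG-KO mice of 0.38 ± 0.09 (unadjusted p = 0.00116, edgeR adjusted p = 0.138) and 0.48 ± 0.11 (unadjusted p = 0.000879, adjusted p = 0.13) against WT mice. DESeq2 called both. Cacng5, a gene of CA2 neurons, had a log2 fold change of 1.28 ± 0.40 in AG-KO against WT mice (unadjusted p = 0.00729, adjusted p = 0.204), and Drd2, the dopamine receptor of mossy cells, one of 0.98 ± 0.25 (unadjusted p = 0.00187, adjusted p = 0.159). Their whole lists had AG-KO medians of 0.20 (8 interneuron genes), 0.09 (8 CA2 and CA3 genes) and 0.20 (5 mossy cell genes), with 2, 2 and 1 negative. At an unadjusted p under 0.05 in edgeR, 3, 1 and 1 of them passed, against 14.4% of all genes. Pvalb, also an interneuron gene, had a log2 fold change of -0.49 ± 0.33.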
